A study of Mus musculus with 3 samples.

Results

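The miR-7 family of the mouse comprises the hairpin genes Mir7-1, Mir7-2 and Mir7b, and these 3 hairpins were followed here among 175 miRNA hairpin genes that could be placed on the deposited alignments. They were chosen by name, and each was located by comparing its RefSeq hairpin sequence with the mismatches written beside the aligned reads, since the alignments carry positions and no miRNA names. The placement rested on the mismatch letters themselves and allowed none that equalled the hairpin base at its position. The libraries were small RNA-seq of MIN6, a mouse insulinoma line used in place of pancreatic beta cells, grown in DMEM with 25 mM glucose, with 3 samples described as biological replicates and 1 condition. The total of mapped reads ran from 9269795 to 10816006 per library, of which 71.3% to 71.8% matched the genome without a mismatch. Levels are given in reads per 1000000 mapped reads (RPM), so 3 reads corresponded to between 0.277 and 0.324 RPM.

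miRNAs are cut from hairpin precursors as a duplex whose strands are named 5p and 3p after the hairpin arm they come from, and nucleotides 2 to 8 of a strand, the seed, govern which RNAs it pairs with. miR-7 is a conserved miRNA of neurons and of endocrine cells, and in pancreatic beta cells miR-7a is known to restrain insulin secretion. In the brain it is bound by the circular RNA Cdr1as, which carries many miR-7 sites, and the long noncoding RNA Cyrano directs its degradation, which goes along with tailing of its 3′ end.

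The 3 hairpins lie on different chromosomes. On mm9, Mir7-1 was placed at chr13:58494140-58494247 on the minus strand, Mir7-2 at chr7:86033163-86033259 on the plus strand and Mir7b at chr17:56382411-56382521 on the plus strand. In the GENCODE M21 annotation, which uses another build, Mir7-1 lies inside Hnrnpk, the gene of an RNA-binding protein, and overlaps none of its exons. Mir7-2 and Mir7b overlap no other gene there. The RefSeq hairpins (GRCm38.p6) are shown because the reads fall on both arms of each, and capitals mark the annotated arms, 5p first.
Mir7-1: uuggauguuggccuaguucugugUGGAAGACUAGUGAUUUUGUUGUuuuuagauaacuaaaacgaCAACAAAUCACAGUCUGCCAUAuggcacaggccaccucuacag
Mir7-2: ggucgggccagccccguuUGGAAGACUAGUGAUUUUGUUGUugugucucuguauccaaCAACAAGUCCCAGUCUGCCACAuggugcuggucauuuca
Mir7b: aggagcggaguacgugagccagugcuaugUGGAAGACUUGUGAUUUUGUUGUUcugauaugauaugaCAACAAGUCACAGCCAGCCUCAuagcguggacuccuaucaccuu

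The 6 arms make 5 mature sequences, because Mir7-1 and Mir7-2 share the same miR-7a-5p. The mature sequences are given with the seed in capitals, to show which arms share one.
miR-7a-5p: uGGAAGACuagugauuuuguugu
miR-7b-5p: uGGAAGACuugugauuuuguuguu
miR-7a-1-3p: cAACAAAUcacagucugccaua
miR-7a-2-3p: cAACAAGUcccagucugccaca
miR-7b-3p: cAACAAGUcacagccagccuca
All 3 hairpins gave 5p strands with one seed, and miR-7a-5p and miR-7b-5p differed by A10U, counted from the 5′ end with the miR-7a base first. On the 3p side miR-7a-2-3p and miR-7b-3p shared a seed, and miR-7a-1-3p differed from both by A7G within it.

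Reads that began at the annotated start, the 5′-reference miRNA, were found for all 6 arms in every library. Together they made up 801, 812 and 697 RPM in replicates 1, 2 and 3 (770 ± 63.5 RPM, SD, n = 3). The 5p arms held 74.4% ± 1.32 (SD, n = 3) of the family. By comparison, the most read start in the 3′ part of Mir375, the hairpin of the beta cell miRNA miR-375, held 35.4% ± 1.86 (SD, n = 3) of all mapped reads. That was 463 ± 61 times (SD, n = 3) the share of all mapped reads held by the miR-7 family. Of the hairpins of blood cell miRNAs, Mir451a and Mir142 were in the sequence table and could not be placed by the rule that placed the miR-7 hairpins. That rule placed 175 of the 1005 hairpins in the sequence table, so failing it does not show that a miRNA was absent.

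The miR-7a-5p reads could not be assigned to a hairpin, since the submitters divided a read equally among loci it fitted equally well. The value assigned to miR-7a-1-5p was 217, 229 and 185 RPM in replicates 1 to 3, and that assigned to miR-7a-2-5p was 203, 210 and 170 RPM. Added up, miR-7a-5p reached 420, 439 and 355 RPM (405 ± 44 RPM, SD, n = 3). miR-7b-5p stood at 171, 176 and 156 RPM (168 ± 10.4 RPM, SD, n = 3). Replicate 3 was the lowest of the libraries for each 5p arm.

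The 3p arms were not alike. miR-7a-2-3p was read at 170, 157 and 151 RPM (159 ± 9.73 RPM, SD, n = 3). It lay below miR-7b-5p in each library, though the means differed by less than the SD of either arm. miR-7a-1-3p stood at 22.2, 24 and 19.6 RPM (21.9 ± 2.22 RPM, SD, n = 3). miR-7b-3p was the least read arm, at 18, 14.5 and 14.7 RPM (15.7 ± 1.98 RPM, SD, n = 3). Ordered by mean level, the arms ran from miR-7a-1-5p through miR-7a-2-5p, miR-7b-5p, miR-7a-2-3p and miR-7a-1-3p to miR-7b-3p. This order was the same within each library. The library ranges of each neighbouring pair among the upper 4 overlapped, whereas those of miR-7a-2-3p and miR-7a-1-3p, and of miR-7a-1-3p and miR-7b-3p, did not.

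**Figure D1:**
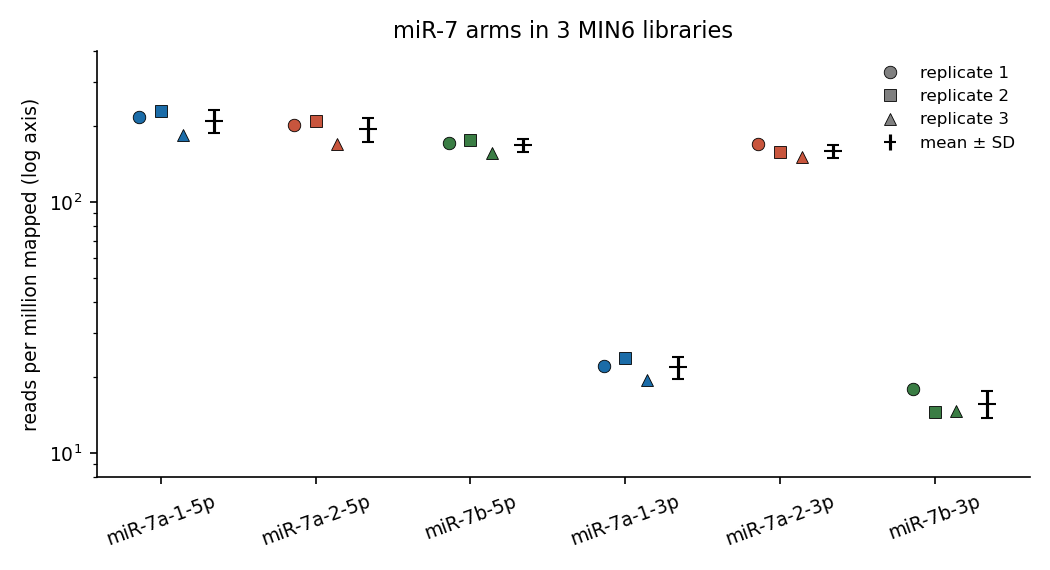
Level of each miR-7 arm at its reference start in RPM (log axis), with 1 symbol per library, colours by hairpin, and the mean ± SD beside them. 4 arms lie between 151 and 229 RPM and 2 of the 3p arms lie between 14.5 and 24 RPM.

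Comparisons between arms were made within each library, so that depth cancels. miR-7a-5p from both hairpins exceeded miR-7b-5p by 2.45, 2.49 and 2.27 times (mean ratio 2.41 ± 0.117, SD, n = 3). miR-7a-2-3p exceeded miR-7a-1-3p by 7.65, 6.56 and 7.70 times (mean ratio 7.30 ± 0.645, SD, n = 3). The 5p to 3p ratio was 10.8 ± 1.34 (SD, n = 3) for Mir7b, but 2.23 ± 0.173 (SD, n = 3) for the miR-7a hairpins added up. With the 5p reads divided as deposited, the ratio for Mir7-2 was 1.22 ± 0.105 (SD, n = 3). The same division gave Mir7-1 217, 229 and 185 RPM at its 5p arm against 22.2, 24 and 19.6 RPM at its 3p arm. The ratio of the sum therefore does not describe each miR-7a hairpin alone. The direction of each ratio was the same in 3 of 3 libraries. For Mir7-2, and for miR-7a-1-5p over miR-7a-2-5p, which was also compared, the 5p values came mostly from the equal division of shared reads. Agreement between libraries there says little about the hairpins themselves. An exact two-sided sign-flip permutation test over 3 libraries cannot return a p below 0.25, and all 9 comparisons within libraries gave this smallest p of 0.25 (Benjamini-Hochberg adjusted p = 0.25).

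Which hairpin a 5p read fits was worked out from its sequence. Over replicates, 59.1% ± 1.31 (SD, n = 3) of the 5p reads fitted both miR-7a hairpins and no other member, and 24.8% ± 1.00 fitted Mir7b only. Reads that fitted Mir7-1 only made up 2.58% ± 0.365 and reads that fitted Mir7-2 only 0.145% ± 0.0689 (SD, n = 3). A further 12.6% ± 0.286 (SD, n = 3) fitted all 3 hairpins equally well. Thus 84.5% ± 0.550 of the value at miR-7b-5p, 7.02% ± 0.975 of that at miR-7a-1-5p and 0.429% ± 0.203 of that at miR-7a-2-5p came from reads with a single locus (SD, n = 3). On the 3p side these shares were 98.9% ± 0.308 for miR-7a-1-3p, 99.5% ± 0.150 for miR-7a-2-3p and 100% in each library for miR-7b-3p.

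The first 28 templated bases of each 5p arm show where the hairpins can be told apart, and capitals mark positions 10 and 25.
miR-7a-1-5p: uggaagacuAgugauuuuguuguuUuua
miR-7a-2-5p: uggaagacuAgugauuuuguuguuGugu
miR-7b-5p: uggaagacuUgugauuuuguuguuCuga
A read of 24 nt or less from Mir7-1 and Mir7-2 is thus the same molecule in sequence. The first difference between them is U25G, so the few assignable miR-7a-5p reads were those long enough to reach base 25.

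At base 25 the reads with A at position 10, which are miR-7a-5p, carried U in 100, 164 and 112 reads, the base of the Mir7-1 template. They carried G, the base of the Mir7-2 template, in 3, 12 and 4 reads. Aligned to the genome, the reads with U were assigned to Mir7-1. However, miR-7b-5p reads, whose template has C at this position, also carried U there, in 36.3, 56 and 33 reads, against 2, 0 and 1 reads with the templated C. As a share of all reads of that miRNA, U at position 25 amounted to 2.93%, 3.97% and 3.57% for miR-7a-5p and to 2.64%, 3.38% and 2.37% for miR-7b-5p. The share was higher for miR-7a-5p in 3 of 3 libraries, while U at this position is templated in neither Mir7b nor Mir7-2. The sequences of these reads are given with positions 10 and 25 in capitals.
miR-7a-5p with U at 25: uggaagacuAgugauuuuguuguuU
miR-7b-5p with U at 25: uggaagacuUgugauuuuguuguuU
A templated miR-7a-5p read of Mir7-1 and a miR-7a-5p read of Mir7-2 with an added U cannot be told apart. The 1.08 ± 0.0104 ratio (SD, n = 3) of miR-7a-1-5p to miR-7a-2-5p in the deposited values rested mostly on such reads. Besides them, 18, 25 and 27 reads with C at position 10 and U at position 25 were assigned to Mir7-1 only. The 35.3, 56 and 33 5p reads that fitted Mir7-1 and Mir7b were nearly all the miR-7b-5p reads with U at position 25 given above. They were divided between these hairpins, so part of their count went to Mir7-1. On the 3p side, where the miR-7a hairpins differ at A7G, A10C and U21C, Mir7-2 had the higher level.

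**Figure D2:**
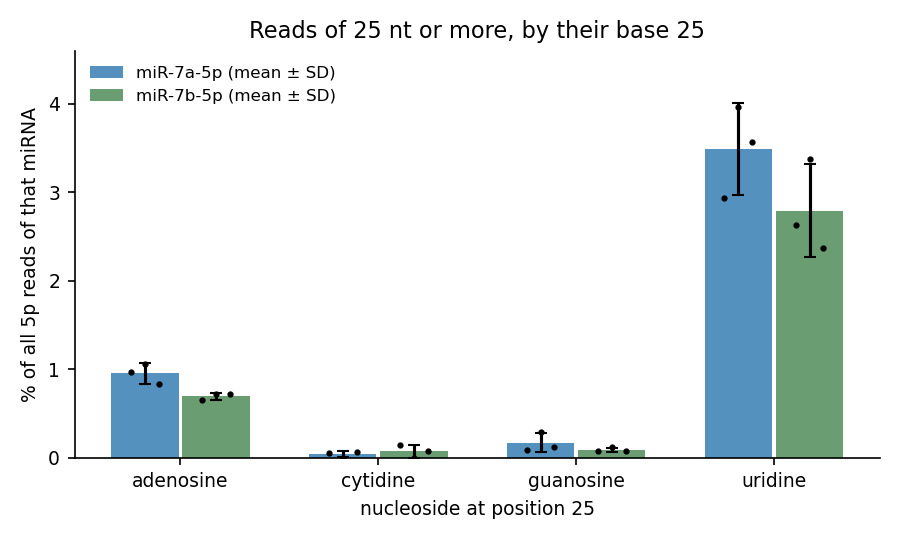
Reads of 25 nt or more by the nucleoside at position 25, as a percent of all 5p reads of miR-7a-5p (A at position 10) and miR-7b-5p (U at position 10), with bars at the mean, error bars of 1 SD and a point per library. Uridine was the most frequent in both, at 3.49% and 2.79%, and adenosine followed at 0.954% and 0.698%.

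The reads that fitted all 3 hairpins turned out to be of nearly one kind: 99.3% ± 0.297 (SD, n = 3) of them had C at position 10, where miR-7a has A and miR-7b has U. Such a read stands 1 mismatch away from each member, A10C from miR-7a and U10C from miR-7b, and was divided equally among the 3 loci.
5p read with C at position 10: uggaagacuCgugauuuuguuguu
Their share of the value deposited at the miR-7b-5p start was 14.2%, 14.7% and 14% in replicates 1, 2 and 3, and of that at both miR-7a-5p starts 11.5%, 11.8% and 12.4%. Leaving these reads out changed the ratio of miR-7a-5p to miR-7b-5p little, to 2.47 ± 0.138 (SD, n = 3). Counting all of them as miR-7a raised it to 2.97 ± 0.149, and counting all of them as miR-7b lowered it to 1.65 ± 0.0809 (SD, n = 3).

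C in place of A was also frequent at other positions of the family, and C in place of U was not. In miR-7a-2-3p the share of reads with A12C was 19.8%, 17.2% and 16.7% (17.9% ± 1.70, SD, n = 3), that with A20C was 8.35% ± 0.212 and that with A6C was 6.37% ± 0.0647. In miR-7b-3p A10C reached 9.72% ± 0.883 and A12C reached 13.4% ± 3.24 (SD, n = 3). In miR-7a-1-3p A10C was lower, at 4.99% ± 1.32 (SD, n = 3), from 13, 9.5 and 10 reads. Other adenosines of the same arms, at positions 2, 3 and 5, had C in at most 0.0212% of reads. The highest mean share of C at any of 29 uridine positions was 0.238%, at U21C of miR-7a-1-3p. On the 5p arms, C at position 10 made up 17.4% ± 0.748 of the reads with A or C there and 33.7% ± 0.559 of those with U or C (SD, n = 3).

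The same positions stood out in the other miRNAs. Over 221 other placed starts with at least 100 reads in every library, the median share of C at an adenosine was 9.39% at position 6, 12.6% at position 10, 7.58% at position 11, 18.7% at position 12 and 8.04% at position 20. At position 10 the quartiles were 10.2% and 14.6%. A10C of miR-7a-1-3p and of miR-7b-3p lay below them, and the 17.4% of the 5p arms, out of reads with A or C, lay above. At positions 2 to 5 the median was 0%, and at position 10 the 47 starts with a uridine had a median of 0.0261%. A to C accounted for 83.6% of the internal mismatches of miR-7 reads, position 10 of the 5p arms left aside, and for 80.9% of those at the other miRNAs. What produced this pattern was not tested.

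**Figure D3:**
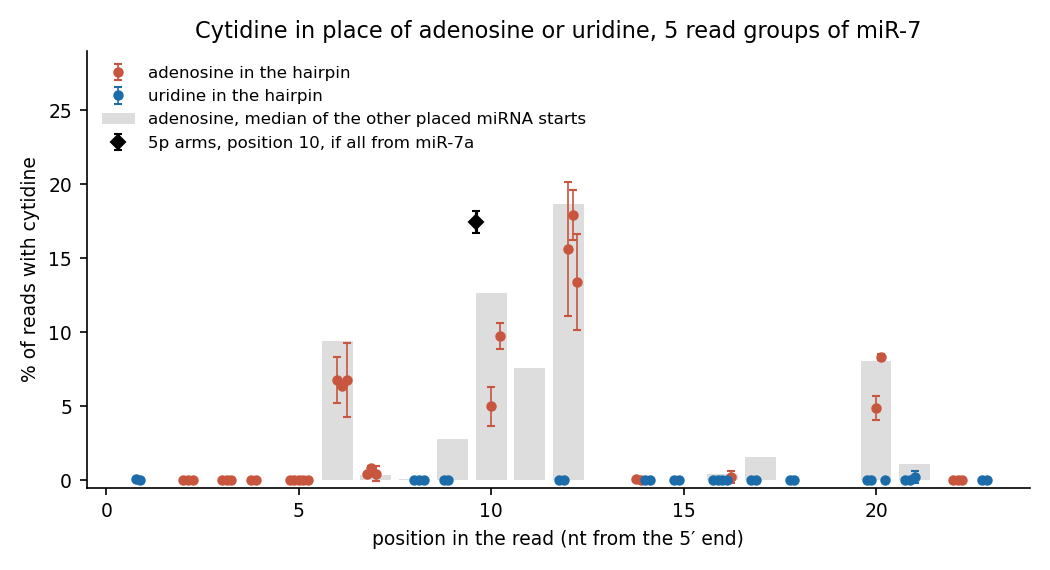
Percent of reads with cytidine at each position of the read where the hairpin has adenosine or uridine, for miR-7a-5p, miR-7b-5p and the 3p arms (mean ± SD of 3 libraries, offset sideways by read group), with grey bars for the median over other placed miRNA starts with adenosine there. The diamond gives position 10 of the 5p arms as a share of the reads with adenosine or cytidine, 17.4%, and adenosine at positions 6, 10, 12 and 20 stands apart from uridine throughout.

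Start positions were examined next, because a shifted 5′ end changes the seed. Starts from 3 nt before to 9 nt after each reference start were counted, and 20 of them, 14 shifted and 6 reference, had at least 10 reads in every library. The 5 shifted starts at miR-7a-1-5p and the 5 at miR-7a-2-5p lay at the same distances. They held mostly the same reads, divided between the hairpins. The reference start held 97.0% ± 0.523 of the miR-7b-5p reads and 90.9% ± 0.879 of those at miR-7a-1-5p (SD, n = 3). It held 94.7% ± 0.452 at miR-7a-2-3p, 86.5% ± 1.74 at miR-7a-1-3p and 99.8% ± 0.344 at miR-7b-3p (SD, n = 3).

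The 5p start was sharply placed. Reads shifted by 1 nt in either direction made up 0.359% ± 0.0241 (SD, n = 3) of the reads at miR-7a-1-5p. The shifted miR-7a-5p reads instead began 2 to 7 nt downstream, and were shorter by about as much as they were shifted. At miR-7a-1-5p the start 3 nt downstream had 62.3, 67.9 and 51.5 reads, a mean share of 2.59%, and its most frequent length was 21 nt. The start 7 nt downstream had 32.6, 31.4 and 29.3 reads, with a most frequent length of 17 nt. These reads thus ended where the full-length reads ended. They were mostly shared between the miR-7a hairpins, and 9.59% ± 1.13 (SD, n = 3) of the downstream reads at miR-7a-1-5p had a single locus. At miR-7b-5p the start 3 nt downstream was the only shifted start with 10 reads in every library, with 23.9, 26 and 16.7 reads.

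On the 3p side most shifted reads of the miR-7a hairpins lay within 1 nt of the reference. At miR-7a-1-3p 13.5% ± 1.74 of the reads were shifted and 11.8% ± 1.35 lay within 1 nt, and at miR-7a-2-3p these shares were 5.32% ± 0.452 and 5.30% ± 0.417 (SD, n = 3). miR-7a-2-3p had 30, 34 and 48 reads that began 1 nt upstream and 53.5, 57 and 46.5 reads that began 1 nt downstream, which were 2.21% ± 0.626 and 3.08% ± 0.209 of the arm (SD, n = 3). miR-7a-1-3p had 32, 31 and 26 reads beginning 1 nt downstream, 11.6% ± 1.37 of that arm (SD, n = 3), with Wilson 95% intervals of single libraries from 7.43% to 17.9%. The share at +1 was thus higher at miR-7a-1-3p than at miR-7a-2-3p in each library. The opening 14 nt of these 5′-shifted isomiRs are given with their seeds in capitals.
miR-7a-2-3p at -1: aCAACAAGucccag
miR-7a-2-3p at +1: aACAAGUCccaguc
miR-7a-1-3p at +1: aACAAAUCacaguc

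**Figure D4:**
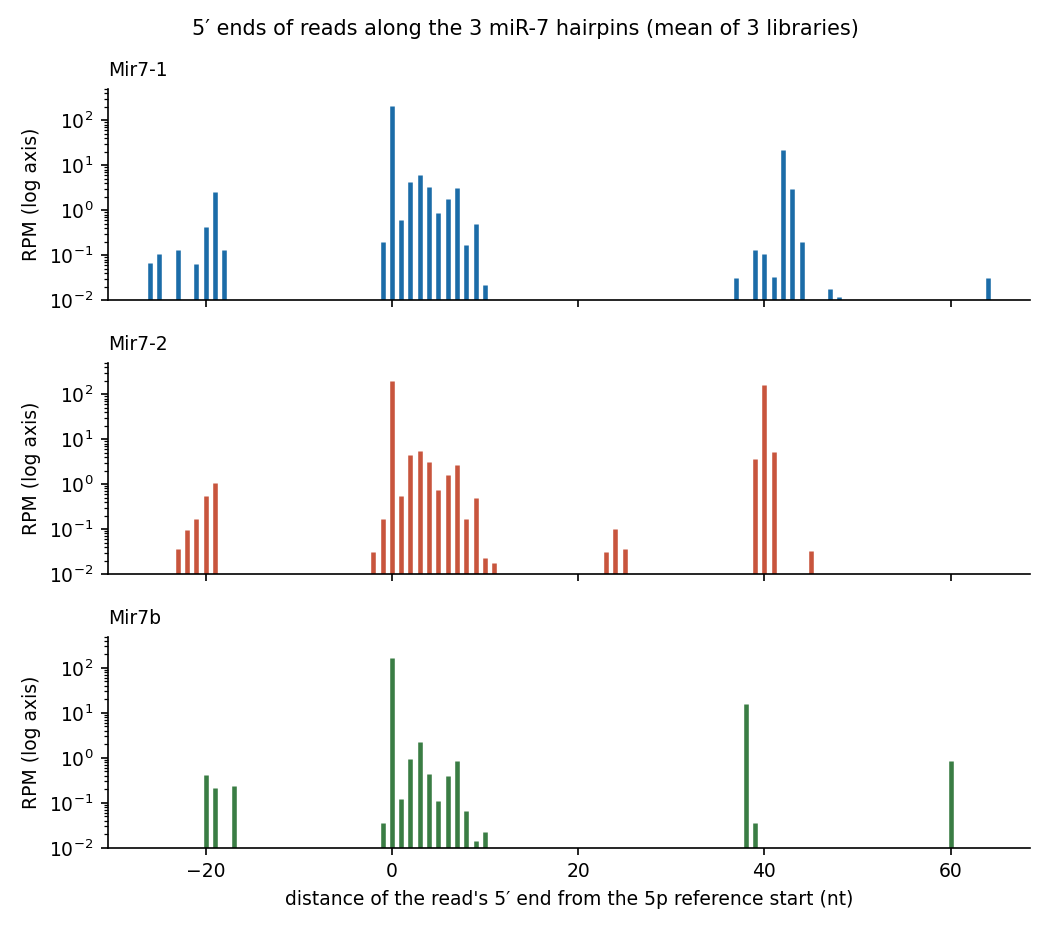
Level of reads by the distance of their 5′ end from the 5p reference start along each hairpin, in mean RPM of 3 libraries (log axis). Both arms stand out in each hairpin, the 5p start is followed by a tail of downstream starts, the 3p starts of the miR-7a hairpins have a neighbour at 1 nt, and a small group of reads lies ahead of the 5p arm.

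Read length differed by strand. At the 5p reference starts 24 nt was the most frequent length, at 67.3% ± 1.55 of the reads of miR-7a-1-5p, 72.8% ± 1.17 of miR-7a-2-5p and 72.5% ± 0.390 of miR-7b-5p (SD, n = 3). The next was 23 nt, at 21.6% ± 0.378 of the reads of miR-7a-1-5p and 23% ± 0.345 of those of miR-7b-5p. For miR-7a-5p the annotated mature sequence is 23 nt, so most reads were 1 nt longer than the annotation. Base 24 is U in each template, and a templated U and a U added to a read of 23 nt cannot be told apart there. On the 3p side 22 nt was the leading length for miR-7a-2-3p at 67.5% ± 2.50 and for miR-7a-1-3p at 60.1% ± 1.03 (SD, n = 3). miR-7b-3p had no leading length, with 26.8% ± 6.01 of its reads at 20 nt, 27.8% ± 4.81 at 21 nt and 28.1% ± 1.94 at 22 nt (SD, n = 3).

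The 3′ ends of 3p reads often carried a last base that did not match the hairpin, here counted as a 3′ terminal mismatch. Its share was 24%, 21.9% and 22.3% at miR-7a-2-3p (22.7% ± 1.16, SD, n = 3) and 23.3%, 23.9% and 29% at miR-7a-1-3p (25.4% ± 3.13, SD, n = 3). It was 9.72% ± 3.17 at miR-7b-3p (SD, n = 3), where single libraries had 12 to 21 such reads and Wilson 95% intervals from 4.61% to 19.6%. At the 5p arms it was 1.02% ± 0.0705 for miR-7a-1-5p, 1.12% ± 0.140 for miR-7a-2-5p and 1.93% ± 0.279 for miR-7b-5p (SD, n = 3). The 3p share was higher than the 5p share in 3 of 3 libraries for each hairpin, by 21.6 ± 1.16 percentage points for Mir7-2, 24.4 ± 3.20 for Mir7-1 and 7.79 ± 3.03 for Mir7b (SD, n = 3). Part of the 3p count came from reads of 20 nt, which at the miR-7a hairpins end at A20, where C in place of A was frequent. Such reads with a terminal mismatch were 1.72% ± 0.373 of miR-7a-2-3p and 0.881% ± 0.351 of miR-7a-1-3p (SD, n = 3). The count cannot show all added bases alike. Bases 23 and 24 are U in all 3 5p templates, and base 25 is U in Mir7-1, so a U added there equals the template and is not seen as a mismatch at the lengths most 5p reads had. In addition, the 36.3, 56 and 33 miR-7b-5p reads with U at position 25 mostly fitted Mir7-1 as well and were divided. Terminal mismatches with U counted at miR-7b-5p were therefore only 16.7, 25.8 and 15.5 reads, and its 5p share is a low count. How much of the difference between the strands these limits account for was not tested.

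Most of these reads had U as base 22 in place of the templated A (A22U). At miR-7a-2-3p, 304.5, 307 and 269.5 of 1106.5, 1136.5 and 1007.5 reads of 22 nt ended this way, or 27.1% ± 0.391 (SD, n = 3). The share was 38.4% ± 4 at miR-7a-1-3p and 26.0% ± 9.31 at miR-7b-3p (SD, n = 3). Reads of this kind were 80.5% ± 1.98 of all terminal mismatches at miR-7a-2-3p and 90.9% ± 2.27 at miR-7a-1-3p. Their sequences are given with the untemplated base in capitals.
miR-7a-1-3p: caacaaaucacagucugccauU
miR-7a-2-3p: caacaagucccagucugccacU
miR-7b-3p: caacaagucacagccagccucU
An A added at position 22 equals the template of all 3 arms and cannot be seen as a mismatch, so the shares of added A and added U were not compared.

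**Figure D5:**
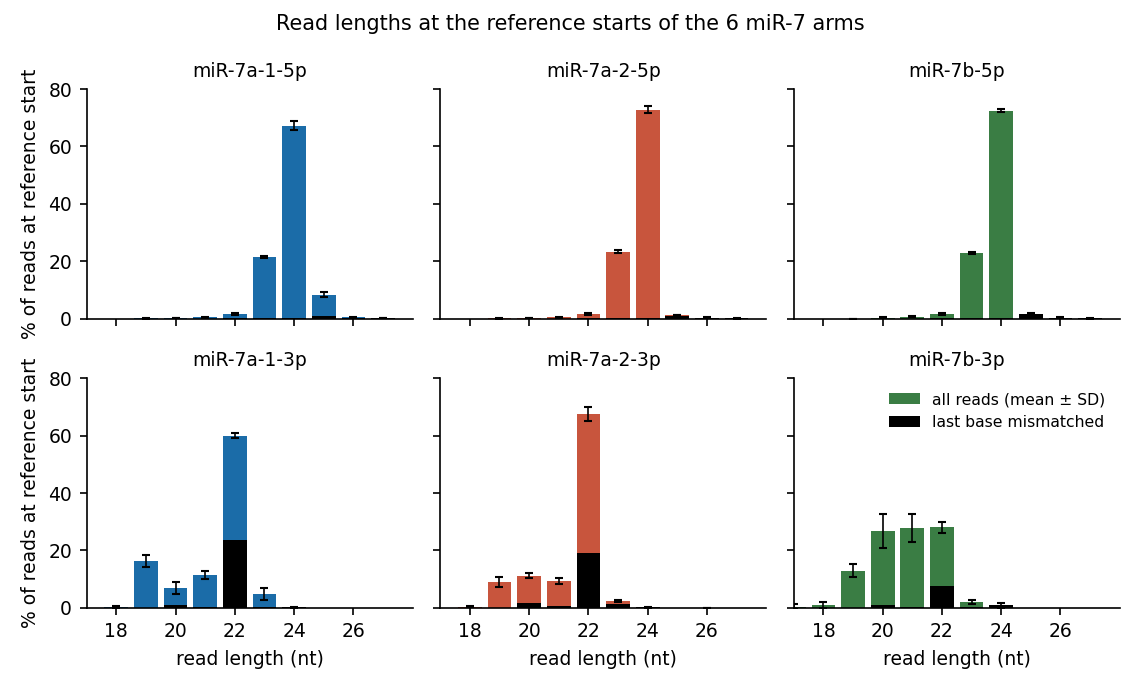
Percent of the reads at each reference start by read length (bars, mean ± SD of 3 libraries), with the part whose last base mismatches the hairpin in black. The 5p arms peak at 24 nt, where an added uridine equals the template, and the black part of the 3p arms lies mostly at 22 nt.

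Against 760 starts with at least 100 reads in every library and a most frequent length of 20 to 24 nt, which include members of many families, the 4 upper arms ranked from 128 to 170 by mean level. For miR-7a-1-5p and miR-7a-2-5p the ranks are those of the deposited division of mostly shared reads, while miR-7a-5p added up stood at 405 RPM. The lower 3p arms ranked 533 for miR-7a-1-3p and 652 for miR-7b-3p. The median level of these starts was 39.6 RPM and the median terminal mismatch share 4.36%, and 84.6% of starts had a lower terminal mismatch share than miR-7a-2-3p. A most frequent length of 24 nt, as at the 5p arms of all 3 hairpins, was found at 9.74% of these starts, and 22 nt at 39.9%. The coefficient of variation over libraries was 10.9% for the miR-7a-5p values and 6.18% for miR-7b-5p, beside a median of 9.82% over these starts.

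Among 226 named starts of other hairpins, those nearest in mean level were identified for the 4 upper arms. miR-29c-3p at 214 RPM and miR-361-5p at 204 RPM lay on either side of miR-7a-1-5p. miR-341-3p at 199 RPM and miR-24-3p at its Mir24-1 locus at 187 RPM flanked miR-7a-2-5p. Both of these miR-7a arm values come from the deposited division of mostly shared reads, and miR-7a-5p added up stood at 405 RPM. miR-741-3p at 171 RPM and miR-140-3p at 166 RPM flanked miR-7b-5p, and miR-340-3p at 160 RPM and miR-153-3p at 156 RPM flanked miR-7a-2-3p. With SDs between 8.35 and 29.8 RPM over 3 libraries, none of these neighbours was separated from its miR-7 arm by more than the spread.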

How the data were processed

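Small RNA from 3 MIN6 libraries was analysed, all in 1 condition. The authors trimmed adaptors with cutAdapt 1.0, mapped reads of 14 to 41 nt to mm9 (named in the submitters' processing notes) with Bowtie 0.12.7 without mismatches, aligned the remainder with SHRiMP 2.2.2 allowing mismatches, and divided a read equally among equally good loci. The deposited values are expected counts per alignment, not normalized. RPM used all mapped reads. Hairpins were placed by sequence against mismatch letters (starts with at least 15 reads, at least 20 bits and no contradiction), and no reversed hairpin was placed. The placement was tested on simulated data. A member's read counted as single-locus when its sequence occurred at 1 family locus and its value was whole, because an even number of shared reads also gives whole values. Named were the hairpins, their arms, starts with at least 10 reads in every library, and the neighbours in level. Ratios were tested by exact sign-flip permutation. Intervals are Wilson 95% on counts rounded to whole reads and, like the floor of 3 reads, cover counting error only, since reads carry no molecular identifiers. Alternatives were single-locus, exact or 18 to 25 nt reads, other denominators and thresholds, and leaving out each library. Members and lists were chosen with earlier results of these data known. Python 3 with numpy, pandas and scipy was used.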

Additional observations from a re-analysis of the deposited data

How the results depend on the processing

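No paired analysis was possible because only 1 condition was sequenced, so replicate numbers pair no groups, and arms were compared within each library instead. The 5p arms of miR-7a have nearly no reads of their own, so reads with a single locus gave 14.8 RPM for miR-7a-1-5p, 0.836 RPM for miR-7a-2-5p and 142 RPM for miR-7b-5p. On these reads the order of miR-7a-5p and miR-7b-5p turned to a ratio of 0.110, that of 5p and 3p to 0.00535 for Mir7-2 and to 0.0869 for the miR-7a hairpins together, the number of starts with at least 10 reads in every library fell from 20 to 9, the share of 24 nt was 0% at both miR-7a-5p starts and 73.9% at miR-7b-5p, and the reference start held 87.8% of miR-7a-1-5p and 51.9% of miR-7a-2-5p. The ratio of miR-7a-1-5p to miR-7a-2-5p went from 1.08 to 20.3 ± 8.38 (SD, n = 3). The terminal mismatch share of the 3p over the 5p arm of Mir7-2 went from 21.6 to 12 ± 11.9 percentage points (SD, n = 3, exact sign-flip permutation p = 0.5) and no longer held in 3 of 3 libraries. That setting removes the shared reads by construction.

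Reads without a mismatch gave 176, 165 and 137 RPM for the 5p arms of Mir7-1, Mir7-2 and Mir7b and 11.3, 83.1 and 9.42 RPM for the 3p arms. Their share of 24 nt was 69.3%, 74.1% and 74.3% at the 5p arms, and that of 22 nt 47.1%, 62.3% and 21.8% at the 3p arms, with 93.8% of miR-7a-2-3p at the reference start. A terminal mismatch share cannot be had from them. Reads of 18 to 25 nt moved the reference start share to 92.5% at miR-7a-1-5p and 92.6% at miR-7a-2-5p. As RPM of mapped reads with a whole count, the 5p arms stood at 251, 232 and 201 and the 3p arms at 26.2, 190 and 18.8. As RPM of mapped reads without a mismatch, they stood at 294, 272 and 235 and at 30.6, 223 and 22. Counting all starts of the arm raised miR-7a-1-3p to 25.4 RPM.

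Of starts with at least 1000 reads, 39.0% lay below miR-7a-1-5p, 35.7% below miR-7a-2-5p, 24.8% below miR-7b-5p and 19.0% below miR-7a-2-3p, against 83.2%, 82.2%, 79.2% and 77.6% with at least 100 reads. With starts of any most frequent length these shares were 90.4%, 89.9%, 87.8% and 86.8%, and those of miR-7a-1-3p and miR-7b-3p were 35.9% and 19.7%. In all, 147 of 197 alternative values stayed within 1 SD, within 1.5 times for a count, or in the same direction, among them those without 1 library. For means and ratios the values without 1 library were bound to pass. Leaving out 1 of 3 libraries cannot move a mean by 1 SD or turn a direction shared by all of them. The 3 ways of counting the reads with C at position 10 were chosen after seeing the data. Low counts limit miR-7b-3p and the shifted starts most.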

Other observations

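Reads also lay just outside the annotated arms. Ahead of the 5p arm of Mir7-1, 32, 32 and 40 reads in replicates 1, 2 and 3 ended at the base before it (3.44 ± 0.478 RPM, SD, n = 3), with 19 nt as the most frequent length. Mir7-2 had 17, 12 and 28 such reads and Mir7b had 6, 13 and 8. Beyond the 3p arm of Mir7b, 10, 9 and 7 reads began at the base after it, whereas Mir7-2 had none there and Mir7-1 had 1 in all libraries together. All of these reads had whole values. Between the arms, each hairpin had at most 2.4 reads in any library. The most frequent of these flanking reads at Mir7-1 had 70 reads over the 3 libraries. After the 3p arm of Mir7b a read of 21 nt had 7 reads, and reads of 19 nt there also numbered 7. The Mir7-1 read and the 21 nt read are given because neither is an annotated strand.
Mir7-1, before the 5p arm: auguuggccuaguucugug
Mir7b, after the 3p arm: uagcguggacuccuaucaccu

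The reads with C at position 10 extended to base 25 about as often as the other 5p reads. Reads of 25 nt or more were 4.49% ± 0.329 of them, 4.65% ± 0.638 of the miR-7a-5p reads and 3.65% ± 0.511 of the miR-7b-5p reads (SD, n = 3), and U was the most frequent base 25 in all 3 kinds.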
